A study of Homo sapiens with 6 samples.

Results

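A set of 10 RNA-binding proteins that steer alternative splicing in epithelial or mesenchymal cells was followed through clones of the human pancreatic ductal adenocarcinoma line MiaPaCa2. They are ESRP1, ESRP2, RBM47, RBFOX2, QKI, MBNL1, MBNL2, CELF1, PTBP1 and SRSF1, taken by symbol from the deposited count table, and all 10 were found among its 26334 gene symbols. Libraries of 3 clones labelled as deleted for ZEB1 by genome editing (ZEB1-KO) were set against libraries of 3 wild-type clones (WT). The ZEB1-KO clones were isolated from cells sorted for GFP after electroporation with a plasmid that carried a ZEB1 guide RNA, Cas9 and GFP. The WT clones were sorted in the same way after the plasmid with Cas9 and GFP and no named guide, and all clones grew in DMEM with serum. Each library was prepared from 2000 cells of a single clone with SMART-Seq2, a poly(A)-primed method that does not record strand. Each clone gave a single library, so that differences between clones and between libraries of a group cannot be told apart.

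Alternative splicing joins different exons of a gene into different messenger RNAs, and RNA-binding proteins decide which exons are used. ESRP1 and ESRP2 are epithelial splicing regulators that are silenced when cells turn mesenchymal, and ZEB1, a zinc-finger repressor, is a known repressor of ESRP1. QKI and RBFOX2 promote many splice forms of mesenchymal cells, MBNL1 and MBNL2 drive adult-type splice forms, and CELF1, PTBP1 and SRSF1 act in nearly all cell types. The counts used here are per gene, so they measure the level of each regulator and not the exon choice it controls.

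Libraries held between 18909305 and 42876693 counts, and a floor of 3 counts corresponded to 0.0687 to 0.150 CPM (TMM-scaled counts relative to library size). ZEB1 itself had 67, 140 and 369 counts in ZEB1-KO replicates 1, 2 and 3, against 1486, 1011 and 830 counts in WT replicates 1, 2 and 3, and the groups did not overlap. Its level was 3.34, 3.46 and 11.5 CPM in ZEB1-KO clones and 34.0, 31.2 and 33.6 CPM in WT clones, so that ZEB1 message was still counted in every ZEB1-KO library, most in replicate 3. In edgeR's quasi-likelihood test its log2 fold change was -2.43 ± 0.49 (SE), with an adjusted p of 0.0930 that missed the threshold of 0.05. In the authors' deposited table, which holds a likelihood ratio score, the value for ZEB1 was -2.44, with an adjusted p of 0.000391. The likelihood ratio test of edgeR, run here on the same libraries, gave ZEB1 an adjusted p of 0.00056. Of 10 ductal and epithelial markers, EPCAM was at or under the floor in every library, and CDH1 had at most 4 counts in any library. The summed level of those 10 markers ran from 4143 to 5355 CPM in ZEB1-KO clones and from 2198 to 3300 CPM in WT clones. KRT8 and KRT18 carried most of it. KRT8 was at 1632, 2071 and 2117 CPM in ZEB1-KO clones and at 720, 855 and 875 CPM in WT clones. KRT18 was at 2288, 2632 and 2844 CPM in ZEB1-KO clones and at 1366, 1888.5 and 2177 CPM in WT clones. All other markers of that list overlapped between the groups in CPM. SOX9 had a lower mean in ZEB1-KO clones, at 38.1 CPM against 80.0 CPM in WT clones. Mesenchymal markers summed to 1355 to 2340 CPM in ZEB1-KO clones and to 3331 to 4263 CPM in WT clones, with ZEB2 and TWIST1 at or under the floor. VIM carried most of that sum, at 1342, 2175 and 1391 CPM in ZEB1-KO clones and at 3781, 3788 and 3045 CPM in WT clones. COL1A2 was at 3.24, 0.321 and 1.43 CPM in ZEB1-KO clones and at 129, 435 and 246 CPM in WT clones (quasi-likelihood adjusted p = 0.0271). SNAI2 went apart from the sum, at 5.14, 160 and 19.7 CPM in ZEB1-KO clones and at 27.6, 5.77 and 5.83 CPM in WT clones. CDH2 and COL1A1 lay higher in every ZEB1-KO clone, at low counts. CDH2 had 3, 11 and 69 counts there and COL1A1 had 4, 6 and 8, against 1, 0 and 0 in WT clones for each. Markers of blood, endothelial, fibroblast, acinar and islet cells summed to at most 7.81 CPM per list in any library. Neuronal markers summed to 9.28 to 50.9 CPM in ZEB1-KO clones and to 68.7 to 87.2 CPM in WT clones, most of it TUBB3. The part of these epithelial, mesenchymal and neuronal markers in the results below was not tested. ZEB1-KO replicate 2 held the highest CPM of 23.2% of all tested genes, against 13.9% to 17.1% for the other libraries.

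Of the 10 regulators, RBM47 differed most between the groups among those that could be tested, and the epithelial regulator ESRP1 was counted in quantity in a single ZEB1-KO clone. ESRP2 had at most 5 counts in any library. RBFOX2 and MBNL2 lay lower in CPM in every ZEB1-KO clone and SRSF1 lay higher, none of them past the test, and QKI, MBNL1, CELF1 and PTBP1 overlapped between the groups. With edgeR's quasi-likelihood test, 0 of the 8 members that passed the filter on low counts had an adjusted p below 0.05, beside 0.176% of all 13659 genes tested (0.117% higher in ZEB1-KO clones). At an unadjusted p below 0.05 the count was 1 of 8, RBM47, beside 17.7% of all genes (9.64% higher and 8.04% lower). DESeq2 called 2 members, ESRP1 and RBM47, beside 7.12% of its genes, and edgeR's likelihood ratio test called 1 member, RBM47, beside 4.52%. RBM47 was also the member called by limma on log2(TPM + 1) and on log2(TPM + 0.1), each beside 0.726% of the genes with a TPM value. The authors' deposited table, which holds a likelihood ratio score for the same libraries, called RBM47 alone of the members, beside 4.75%. In CPM the groups did not overlap for 4 of the 8 tested members, with 2 higher and 2 lower in ZEB1-KO clones, beside 23.6% of all genes tested (11.9% higher and 11.7% lower).

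**Figure D1:**
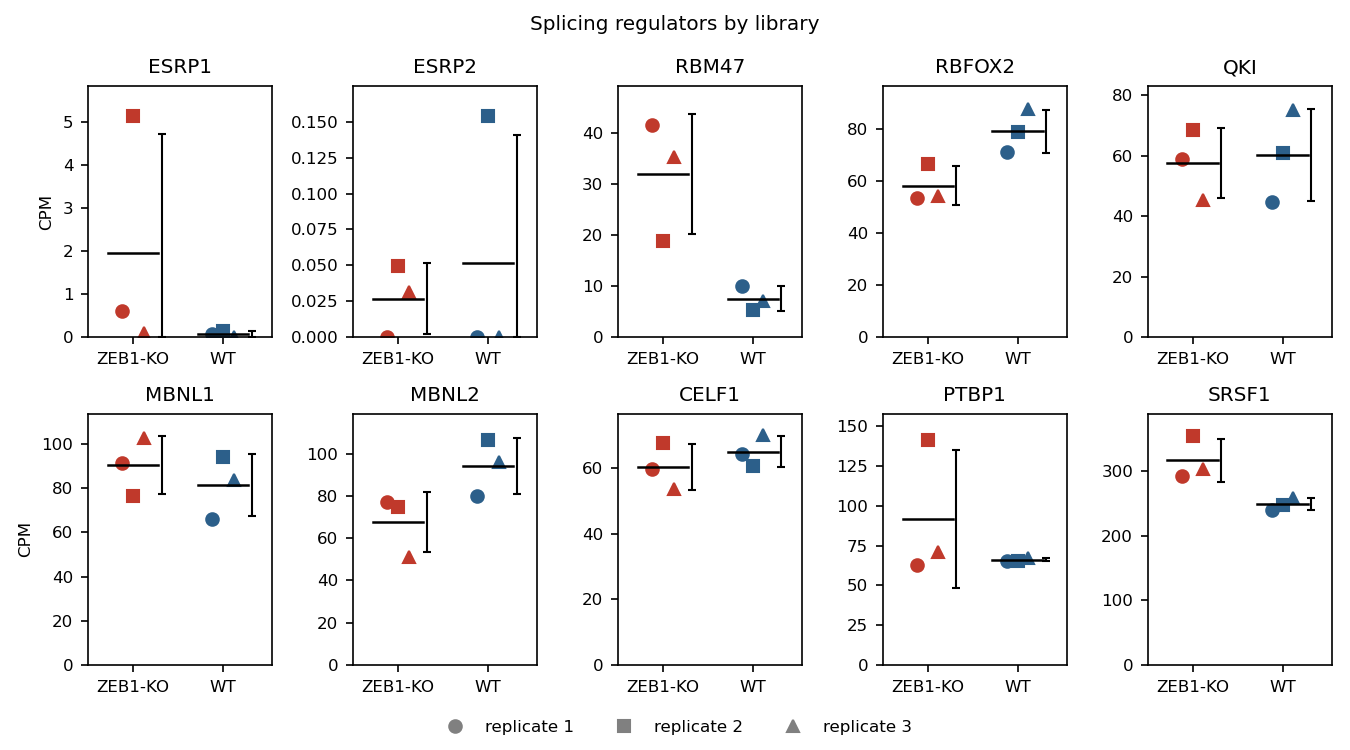
Level of each regulator in counts-per-million (CPM, vertical axes from 0, scaled per gene) in the ZEB1-KO clones and the WT clones, with a symbol per replicate, a line at the mean and a bar of 1 SD (n = 3 each), cut at 0. ESRP1 stands out in ZEB1-KO replicate 2 at 5.14 CPM, RBM47 has no overlap between the groups, and PTBP1 is high in ZEB1-KO replicate 2 at 141 CPM.

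RBM47 is an RNA-binding protein that shifts splicing towards epithelial forms and also stabilises target messages. It was counted 833, 763 and 1132 times in ZEB1-KO replicates 1, 2 and 3, against 441, 171 and 176 times in WT replicates 1, 2 and 3. Its level was 41.6, 18.8 and 35.2 CPM in the ZEB1-KO clones and 10.1, 5.27 and 7.13 CPM in the WT clones. Every ZEB1-KO clone lay above every WT clone, with ZEB1-KO replicate 2 the lowest of its group and WT replicate 1 the highest of its own. The mean was 31.9 CPM ± 11.7 in ZEB1-KO clones and 7.50 CPM ± 2.44 in WT clones (SD, n = 3 each). The fitted ratio was 4.24-fold, and its 95% interval ran from 2.34 to 7.68.

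On the log2 scale RBM47 differed by 2.08 ± 0.37 (SE), and edgeR's quasi-likelihood test gave an unadjusted p of 0.000459 and an adjusted p of 0.0842. The adjusted p passed 0.05 in 5 of 17 alternative settings, which were the fit without a filter (0.0258), DESeq2 (1.06e-05), the likelihood ratio test (0.000261) and limma on log2 of TPM plus 1 (0.0488) or plus 0.1 (0.0474). In the 2 TPM settings the median log2 fold change of all genes was also higher, at 0.20 (plus 1) and 0.26 (plus 0.1), against -0.01. In the authors' deposited table, which holds a likelihood ratio score, the log2 difference of RBM47 was 2.07 (adjusted p = 0.00022). Leaving out each library in turn kept the log2 fold change between 1.85 and 2.38, with adjusted p-values of 0.0688 to 0.278 in the quasi-likelihood test. DESeq2 without each library in turn gave adjusted p-values of 1.69e-08 to 0.00197 for RBM47.

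**Figure D2:**
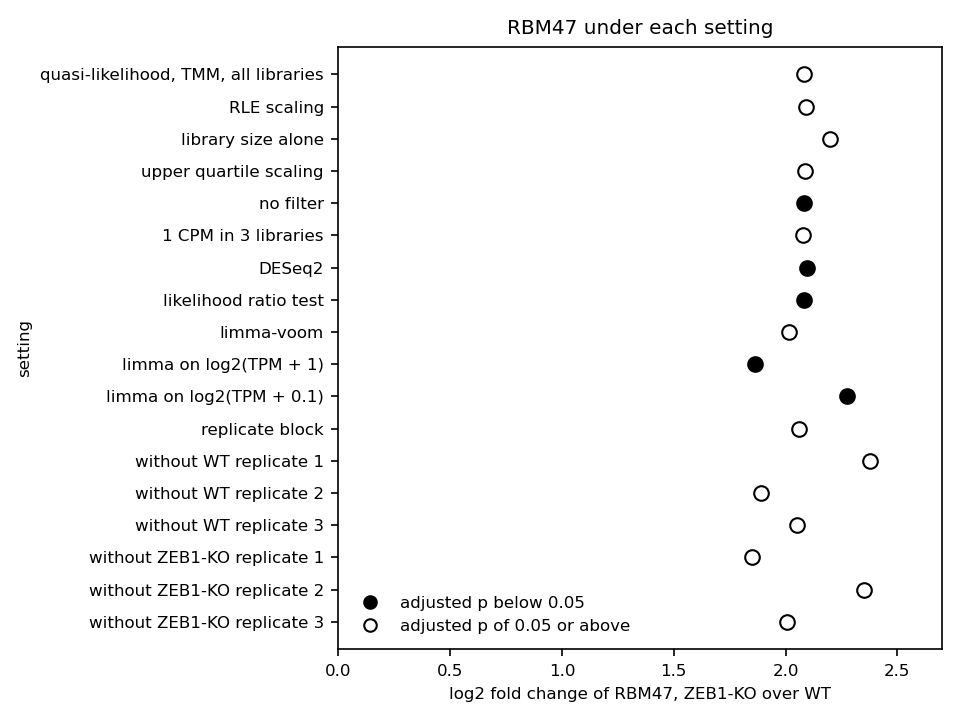
Log2 fold change of RBM47, ZEB1-KO over WT (horizontal axis), under the quasi-likelihood test with all libraries and 17 other settings (vertical axis). Filled points have an adjusted p below 0.05 and open points do not. All points lie between 1.85 and 2.38, and 5 of the 17 alternatives are filled.

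RBM47 also ranked differently among all genes. Per length, it was at 12.9, 6.62 and 11.1 TPM (the authors' values, scaled to transcript length and library total) in ZEB1-KO replicates 1, 2 and 3, against 2.98, 1.30 and 1.90 TPM in WT replicates 1, 2 and 3. Its mean TPM stood at percentile 52.8 of the 11013 genes of that table in ZEB1-KO clones and at percentile 24.7 in WT clones. For its neighbours on chromosome 4 the values lay around 0. The 5 nearest tested genes on each side had log2 fold changes of -0.98 to 0.29 with a median of -0.04. Of these 10, 0 passed the quasi-likelihood test, beside 0.176% of all genes tested. The groups did not overlap in CPM for 1 of the 10, beside 23.6% of all genes tested.

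The RBM47 promoters are shown because RBM47 had the largest log2 fold change of the 8 tested members, and because ZEB1 is known to bind E-box sequences of the form CACCTG. RefSeq promoter windows on GRCh38.p14 were matched for 6 of the 10 members (RBM47, MBNL1, MBNL2, CELF1, PTBP1 and SRSF1), with 17 windows of 250 bases upstream of annotated starts. The deposited counts rest on other builds, since the submitters' processing notes name hg19 and GRCh37. CACCTG, or CAGGTG on the other strand, and TACCTG, or CAGGTA on the other strand, were searched on both strands. Capitals mark these matches in the RBM47 windows that held them, which are chr4:40514582-40514831 for the downstream start and chr4:40630595-40630844 for the upstream start, both on the minus strand.
RBM47 downstream start: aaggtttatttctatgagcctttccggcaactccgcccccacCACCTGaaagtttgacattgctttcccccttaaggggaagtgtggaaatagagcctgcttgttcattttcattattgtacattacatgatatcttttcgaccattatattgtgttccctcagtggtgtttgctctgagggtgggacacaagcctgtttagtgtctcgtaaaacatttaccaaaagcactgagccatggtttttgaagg
RBM47 upstream start: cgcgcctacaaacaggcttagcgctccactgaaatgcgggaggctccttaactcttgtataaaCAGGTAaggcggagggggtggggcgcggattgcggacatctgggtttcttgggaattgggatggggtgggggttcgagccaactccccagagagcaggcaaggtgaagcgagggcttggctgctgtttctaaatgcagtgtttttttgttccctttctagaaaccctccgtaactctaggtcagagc

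The first base of CACCTG lay 208 bases before the annotated start in the downstream window, and that of CAGGTA lay 187 bases before the start in the upstream window. The other 2 of the 4 RBM47 windows and the 13 windows of the other 5 matched members had no match. Each motif was thus in 1 of the 17 windows of the members. Of all 35116 windows in the table, 17.5% held CACCTG or CAGGTG, 7.99% held TACCTG or CAGGTA, and 23.8% held either. Counted by gene, 27.7% of 27305 genes held either. Windows per matched member ran from 1 for SRSF1 to 5 for CELF1. The matches describe letters in these windows and no binding was measured.

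ESRP1, which promotes epithelial exons in FGFR2, CD44 and many other transcripts, had 12, 208 and 3 counts in ZEB1-KO replicates 1, 2 and 3, against 3, 5 and 0 counts in WT replicates 1, 2 and 3. ZEB1-KO replicate 2 thus held 93.3% of the 223 ESRP1 counts of its group. Relative to the pooled WT libraries, with 8 counts in all, the ratio of CPM was 64.7 in ZEB1-KO replicate 2, with an exact 95% counting interval of 32.2 to 152. It was 7.54 in ZEB1-KO replicate 1, with an interval of 2.83 to 21.3, and 1.18 in ZEB1-KO replicate 3, with an interval of 0.201 to 4.90. These intervals take reads as independent and leave out the spread among the WT clones. Amplified copies of a molecule are counted again, so the intervals can be too narrow even for counting error. The interval of ZEB1-KO replicate 2 lay above those of both other ZEB1-KO clones, and no difference between ZEB1-KO replicate 3 and the WT clones was detectable at this depth. Each level is a mean over the cells of a library, so that a few cells with much ESRP1 and many cells with little cannot be told apart.

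ESRP1 did not pass the filter of the quasi-likelihood test. Without that filter its log2 difference was 4.60 ± 1.24 (SE), at an adjusted p of 0.105. DESeq2 put it at 4.68 (adjusted p = 0.00415), and without ZEB1-KO replicate 2 at 2.17, where the unadjusted p was 0.177 and no adjusted p was given. The DESeq2 call ended at a log2 difference of 5.13 without ZEB1-KO replicate 1 (adjusted p = 0.141), 4.63 without WT replicate 1 (0.203) and 4.15 without WT replicate 3 (0.0571). It held without ZEB1-KO replicate 3 (0.000334) or WT replicate 2 (0.0182). ZEB1-KO replicate 2, highest for ESRP1, was the lowest of its group for RBM47.

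ESRP2, the paralog that acts on largely the same epithelial exons, was counted 0, 2 and 1 times in ZEB1-KO replicates 1, 2 and 3, against 0, 5 and 0 times in WT replicates 1, 2 and 3. Its mean was 0.0268 CPM ± 0.0250 in ZEB1-KO clones and 0.0514 CPM ± 0.0890 in WT clones (SD, n = 3 each), and no difference was detectable at this depth. NFATC3 overlaps ESRP2 on the opposite strand in GENCODE 29. It had 597 to 1127 counts in ZEB1-KO libraries and 696 to 1089 counts in WT libraries, and without strand the reads of such a pair cannot be told apart where they overlap.

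RBFOX2, which binds GCAUG elements and promotes mesenchymal splice forms, was at 53.5, 66.6 and 54.2 CPM in ZEB1-KO replicates 1, 2 and 3, against 70.9, 78.7 and 87.4 CPM in WT replicates 1, 2 and 3. Every ZEB1-KO clone lay under every WT clone in CPM. The log2 difference of -0.44 ± 0.20 (SE) did not pass the test (adjusted p = 0.294). Its 10 nearest tested genes had a median of 0.77. In the authors' TPM the groups overlapped, with 11.8, 16.8 and 12.3 TPM in ZEB1-KO clones and 14.99, 13.9 and 16.7 TPM in WT clones.

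QKI, an RNA-binding protein of the STAR family that drives mesenchymal splicing and circular RNA formation, was at 58.8, 68.6 and 45.4 CPM in ZEB1-KO replicates 1, 2 and 3 and at 44.8, 60.8 and 75.1 CPM in WT replicates 1, 2 and 3. The groups covered nearly the same range. The log2 difference was -0.06 ± 0.26 (SE), its 95% interval ran from -0.66 to 0.53, and the adjusted p was 0.918. Its sign was positive in 5 of 17 alternatives, library size alone and both TPM settings among them. The coefficient of variation was 20.3% in ZEB1-KO clones and 25.2% in WT clones, while the means were 57.6 CPM in ZEB1-KO clones and 60.2 CPM in WT clones.

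The muscleblind proteins MBNL1 and MBNL2 promote splice forms of differentiated cells. MBNL1 was at 91.6, 76.6 and 103 CPM in ZEB1-KO replicates 1, 2 and 3, against 66.3, 94.3 and 83.6 CPM in WT replicates 1, 2 and 3. The ranges overlapped, and the log2 difference was 0.15 ± 0.22 (SE) at an adjusted p of 0.755. MBNL2 was at 76.9, 74.7 and 51.2 CPM in the ZEB1-KO clones, against 80.0, 106 and 95.9 CPM in the WT clones. All ZEB1-KO clones lay lower, and the log2 difference of -0.48 ± 0.23 (SE) did not pass the test (adjusted p = 0.322). In TPM it was MBNL1 that did not overlap (21.7 to 26.1 TPM in ZEB1-KO clones and 15.7 to 18.8 TPM in WT clones), while MBNL2 did. Groups did not overlap in TPM for 28.1% of all genes with a TPM value. MBNL1-AS1, annotated on the strand opposite to MBNL1, had 23 counts in each ZEB1-KO library and 23 to 52 counts in the WT libraries, far under MBNL1 at 1836 to 3300 counts in any library.

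CELF1, which binds GU-rich elements and opposes muscleblind proteins at several exons, was at 59.6, 67.6 and 53.6 CPM in ZEB1-KO replicates 1, 2 and 3, against 64.2, 60.6 and 70.0 CPM in WT replicates 1, 2 and 3. The ranges overlapped. Its log2 difference was -0.11 ± 0.19 (SE), within a 95% interval of -0.55 to 0.33 (adjusted p = 0.803), and it was positive with library size alone and in both TPM settings. NDUFS3 and PTPMT1, which overlap CELF1 on the opposite strand in GENCODE 29, had more counts than CELF1. NDUFS3 had 2813 to 5604 counts in ZEB1-KO libraries and 4003 to 6264 in WT libraries, and PTPMT1 had 2270 to 4240 in ZEB1-KO libraries and 3288 to 4591 in WT libraries, against 1195 to 2736 and 1727 to 2801 for CELF1. Without strand, reads of CELF1 and of these genes cannot be told apart where they overlap.

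PTBP1, the polypyrimidine-tract binding protein that represses many exons, was at 62.5, 141 and 71.1 CPM in ZEB1-KO replicates 1, 2 and 3, against 65.6, 65.5 and 67.3 CPM in WT replicates 1, 2 and 3. The WT clones were nearly equal, with a coefficient of variation of 1.59%, while that of the ZEB1-KO clones was 47.3%, with ZEB1-KO replicate 2 the highest of all 6 libraries. The log2 difference was 0.47 ± 0.31 (SE) at an adjusted p of 0.465, and it was 0.013 without ZEB1-KO replicate 2.

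SRSF1, an SR protein that binds purine-rich exon enhancers and is abundant in proliferating cells, was at 292, 354 and 304 CPM in ZEB1-KO replicates 1, 2 and 3, against 239.9, 247 and 258 CPM in WT replicates 1, 2 and 3. All ZEB1-KO clones lay above all WT clones, also in TPM. On log2(TPM + 1), however, the median log2 fold change of all genes was 0.20, against -0.01 in the quasi-likelihood fit. The mean was 316 CPM ± 33.1 in ZEB1-KO clones and 249 CPM ± 9.30 in WT clones (SD, n = 3 each). The fitted ratio was 1.27-fold, and its 95% interval ran from 0.951 to 1.70. Its log2 difference of 0.35 ± 0.18 (SE) did not pass the test (adjusted p = 0.355). Its 10 nearest tested genes had log2 fold changes of -0.18 to 6.13 with a median of 0.26, and 8 were above 0. Of these 10, 3 did not overlap between the groups, beside 23.6% of all genes tested, and 1 passed the test, beside 0.176%. Around QKI, MBNL1, MBNL2, CELF1 and PTBP1 the medians of the 10 nearest tested genes were -0.11, 0.03, -0.23, -0.14 and 0.36. The part of neighbouring genes was not tested for any member.

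**Figure D3:**
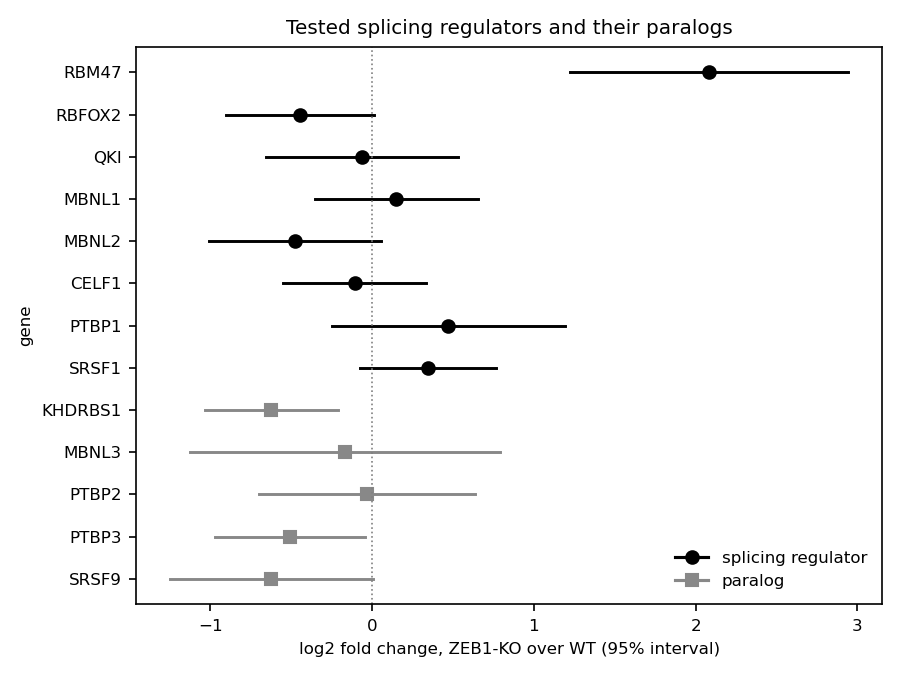
Log2 fold change, ZEB1-KO over WT (horizontal axis), with its 95% interval for the 8 tested regulators (black circles) and 5 tested paralogs (grey squares). The interval of RBM47 runs from 1.23 to 2.94 and lies farthest from 0, while those of the other 7 regulators include 0.

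Among the regulators themselves the order of levels per length was led by SRSF1 in both groups, at 96.2 TPM ± 17.0 in ZEB1-KO clones and 62.3 TPM ± 4.77 in WT clones (SD, n = 3 each). PTBP1 followed at 48.8 TPM ± 26.7 in ZEB1-KO clones and 28.5 TPM ± 2.55 in WT clones, where it overlapped MBNL2. MBNL2 and MBNL1 were next, at 24.5 and 23.5 TPM in ZEB1-KO clones, where they overlapped, and at 27.9 and 17.5 TPM in WT clones, where they did not. RBFOX2 averaged 13.6 TPM in ZEB1-KO clones and 15.2 TPM in WT clones, and CELF1 averaged 11.4 TPM in ZEB1-KO clones and 10.1 TPM in WT clones. RBFOX2 and CELF1 overlapped in ZEB1-KO clones and did not in WT clones, whereas RBFOX2 and MBNL1 overlapped in WT clones and did not in ZEB1-KO clones. By mean, RBM47 and QKI exchanged the lowest places among the members with a TPM value. In ZEB1-KO replicate 2, however, QKI at 7.73 TPM still lay above RBM47 at 6.62 TPM. RBM47 averaged 10.2 TPM in ZEB1-KO clones and overlapped both CELF1 and QKI, which averaged 6.05 TPM, whereas in WT clones RBM47 at 2.06 TPM lay under QKI at 5.16 TPM in every library. ESRP1 and ESRP2 had no TPM value used here. Since the median log2 fold change of all genes was 0.20 on log2(TPM + 1), these TPM levels rank genes within a group.

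Paralogs of the members were mostly silent. Of 16 paralogs, 4 (RBFOX1, RBFOX3, KHDRBS2 and RBM46) had 0 counts in every library, 11 did not pass the filter in all, and the highest count among those 11 was 18. KHDRBS3, a relative of KHDRBS1, had 2, 4 and 18 counts in ZEB1-KO replicates 1, 2 and 3, against 0, 1 and 10 counts in WT replicates 1, 2 and 3. CELF2, CELF3, CELF4, CELF5 and CELF6 had 0 to 7 counts in ZEB1-KO libraries and 0 to 4 counts in WT libraries. A1CF, the closest relative of RBM47 and a cofactor of messenger RNA editing, had 0 to 2 counts in ZEB1-KO libraries and 1 to 3 counts in WT libraries. Of the 5 tested, all had a log2 fold change below 0, with a median of -0.51 beside -0.01 over all genes tested, and 0 passed the quasi-likelihood test. Their count at an unadjusted p below 0.05 was 2, both lower, beside 8.04% of all genes, and DESeq2 and the likelihood ratio test called 0 of them. KHDRBS1, which encodes the STAR protein SAM68, was at 134, 131 and 131 CPM in ZEB1-KO replicates 1, 2 and 3, against 219, 205 and 187 CPM in WT replicates 1, 2 and 3. Its groups did not overlap, and the log2 difference was -0.62 ± 0.18 (SE, adjusted p = 0.140). PTBP3 was at 53.5, 52.0 and 44.3 CPM in ZEB1-KO clones and at 82.1, 67.0 and 63.6 CPM in WT clones, a log2 fold change of -0.51 (adjusted p = 0.242). PTBP2, the neuronal paralog of PTBP1, differed by a log2 value of -0.03 (adjusted p = 0.963), and its sign was positive in 6 of 17 alternatives. SRSF9 differed by -0.62 ± 0.27 (SE) on the log2 scale (adjusted p = 0.285) and MBNL3, with 8 to 18 counts per library, by -0.17 (adjusted p = 0.862).

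The balance within paralog families was compared as the share of the summed TPM. MBNL1 made up 46.4%, 42.7% and 59.3% of MBNL1 and MBNL2 together in ZEB1-KO replicates 1, 2 and 3, against 37.6%, 39.2% and 38.8% in WT replicates 1, 2 and 3. The groups did not overlap, and the mean share was 49.4% ± 8.71 in ZEB1-KO clones and 38.5% ± 0.852 in WT clones (SD, n = 3 each). The exact two-sided permutation test gave p = 0.1, the smallest that 3 against 3 clones allow. Without ZEB1-KO replicate 3 the difference was 6.02 percentage points, against 10.9 with all libraries.

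SRSF1 made up 65.4%, 73.0% and 55.0% of SRSF1 and SRSF9 together in ZEB1-KO replicates 1, 2 and 3, against 44.5%, 50.5% and 47.9% in WT replicates 1, 2 and 3, again without overlap (exact permutation p = 0.1). On the CPM scale that difference was 8.06 percentage points, against 16.8 in TPM. PTBP1 made up 61.1%, 77.7% and 69.6% of the PTBP family in ZEB1-KO clones, against 54.9%, 58.6% and 64.4% in WT clones. These ranges overlapped (exact permutation p = 0.2), and the difference of 10.2 percentage points was 6.09 without ZEB1-KO replicate 2. With 3 against 3 clones, p cannot fall below 0.1 for any of these shares.

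**Figure D4:**
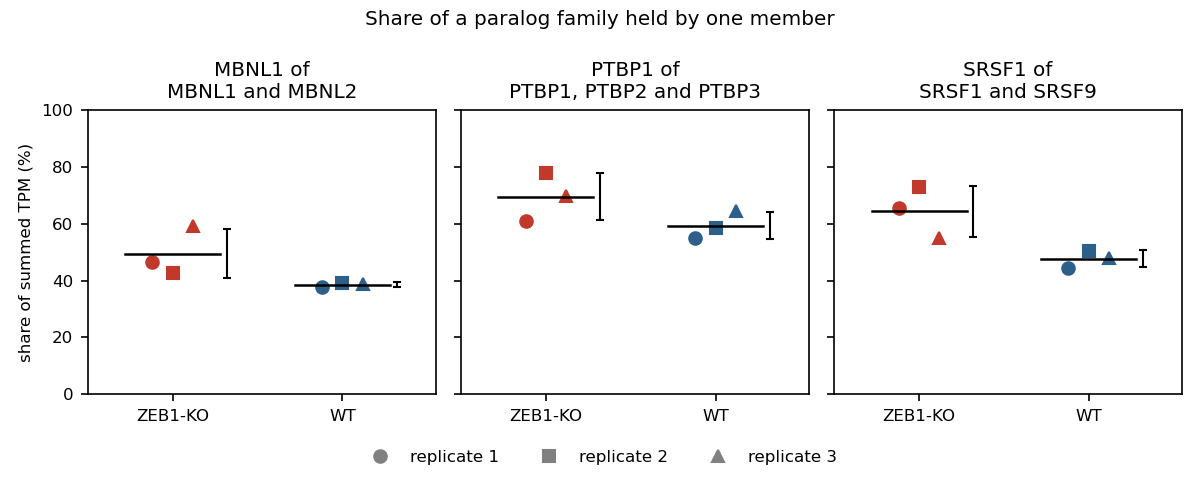
Share of the summed TPM of a paralog family held by MBNL1, PTBP1 or SRSF1 (vertical axis, in %) in the ZEB1-KO clones and the WT clones, with a symbol per replicate, a line at the mean and a bar of 1 SD (n = 3 each). MBNL1 and SRSF1 shares do not overlap between the groups, and PTBP1 shares do.

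The wider splicing machinery was read from lists of genes, 6 in all with a list of genes that host exons known to respond to ESRP proteins. Those host genes are splicing targets, and they made up 15 of the 111 tested genes. Of the 111 tested genes of all 6 lists, 0 passed 0.05 in the quasi-likelihood test. DESeq2 called 9, beside 7.12% of all genes, and the likelihood ratio test called 5, beside 4.52%, and both counts lay near the share over all genes. The authors' deposited table gave an adjusted p below 0.05 to HNRNPK (0.0417), PRMT5 (0.0406), SNRPA (0.00741) and EFTUD2 (0.0162), all higher in ZEB1-KO clones, and to SLK (0.0182), which was lower, beside 4.75% of its genes. The counts at an unadjusted p below 0.05 given for each list stand beside 17.7% of all genes, of which 9.64% were higher and 8.04% lower. SR proteins and TRA2, which bind exon enhancers, had 12 tested genes, 6 of them above 0 in log2 fold change, with a median of 0.03 and 3 at an unadjusted p below 0.05. SRSF6 was at 412, 400.3 and 575 CPM in ZEB1-KO clones and at 290.4, 330.4 and 263 CPM in WT clones (log2 fold change 0.65, adjusted p = 0.183). SRSF11 and TRA2B, named because their groups did not overlap in CPM, had log2 fold changes of -0.65 and 0.46. In TPM the groups overlapped for SRSF11. Of the 12 tested genes, 3 did not overlap and were higher and 1 was lower, beside 11.9% and 11.7% of all genes tested.

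The hnRNP proteins, abundant binders of nascent RNA, had 24 tested genes, 16 of them above 0, with a median of 0.17, 4 at an unadjusted p below 0.05 and all 4 of these higher. HNRNPK, a poly(C)-binding member, was at 364, 469 and 351 CPM in ZEB1-KO clones and at 218, 228 and 208 CPM in WT clones (log2 fold change 0.86 ± 0.20, adjusted p = 0.108). HNRNPC was at 1342, 1159 and 1393 CPM in ZEB1-KO clones and at 867, 716 and 787 CPM in WT clones (log2 fold change 0.72, adjusted p = 0.126). RALY had a log2 fold change of 1.12, with 71.8 CPM in ZEB1-KO replicate 2 against 31.9 and 33.0 CPM in the other clones of its group. DESeq2 called HNRNPK and HNRNPC, and the likelihood ratio test called HNRNPK.

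Other regulated splicing factors had 24 tested genes, 14 of them above 0, with a median of 0.11 and 4 at an unadjusted p below 0.05. PRMT5, the arginine methyltransferase that modifies Sm proteins, was at 100.1, 111 and 141 CPM in ZEB1-KO clones and at 74.3, 47.0 and 57.3 CPM in WT clones (log2 fold change 0.98 ± 0.24, adjusted p = 0.115), and was called by DESeq2 and the likelihood ratio test. RBM25 had a log2 fold change of -0.67 (adjusted p = 0.131) and RBPMS2 one of 0.54 (adjusted p = 0.429). The kinases that phosphorylate SR proteins had 8 tested genes, 3 of them above 0, with a median of -0.11 and 0 at an unadjusted p below 0.05. DESeq2 and the likelihood ratio test called 0 of these kinases. SRPK2 was named as the 1 kinase of 8 whose groups did not overlap in CPM, beside 23.6% of all genes tested. Its log2 fold change was -0.30 (adjusted p = 0.453), and its groups overlapped in TPM.

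Core spliceosome genes had 28 tested members, 19 of them above 0, with a median of 0.08 and 7 at an unadjusted p below 0.05. EFTUD2, a GTPase of the U5 particle, was at 161, 209 and 142 CPM in ZEB1-KO clones and at 86.0, 77.4 and 87.8 CPM in WT clones, a log2 difference of 1.03 ± 0.21 (SE, adjusted p = 0.0942). SNRPA, of the U1 particle, was at 19.8, 59.8 and 15.5 CPM in ZEB1-KO clones and at 8.43, 4.97 and 7.74 CPM in WT clones. Its log2 fold change of 2.17 (adjusted p = 0.113) was 1.32 without ZEB1-KO replicate 2. SNRPD2, an Sm protein, had a log2 fold change of -0.82 (adjusted p = 0.118). DESeq2 called all 3 of these and SF3B4, and the likelihood ratio test called EFTUD2 and SNRPA.

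Genes that host exons known to respond to ESRP proteins were read at gene level only, since isoforms are not separated. Of 15 tested, 6 were above 0, with a median of -0.08 and 3 at an unadjusted p below 0.05. CD44, the hyaluronan receptor, had 23860 to 44372 counts in ZEB1-KO libraries and 32190 to 41452 counts in WT libraries, and its log2 fold change was -0.08 (adjusted p = 0.862). In TPM the means of CD44 lay the other way, at 279 TPM in ZEB1-KO clones and 243 TPM in WT clones. FGFR2 had 31 to 46 counts in ZEB1-KO libraries and 42 to 84 counts in WT libraries (adjusted p = 0.556). ARHGEF11 was at 5.24, 12.6 and 4.20 CPM in ZEB1-KO clones and at 2.24, 2.87 and 2.55 CPM in WT clones, a log2 fold change of 1.53 (adjusted p = 0.144). SLK, a serine/threonine kinase, was at 79.9, 59.3 and 82.9 CPM in ZEB1-KO clones and at 155, 186 and 122 CPM in WT clones, a log2 difference of -1.06 ± 0.24 (SE, adjusted p = 0.102). DESeq2 called ARHGEF11 and SLK, and the likelihood ratio test called SLK. CD44, FGFR2 and SF3B4 were chosen for mention after their values were seen.

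**Figure D5:**
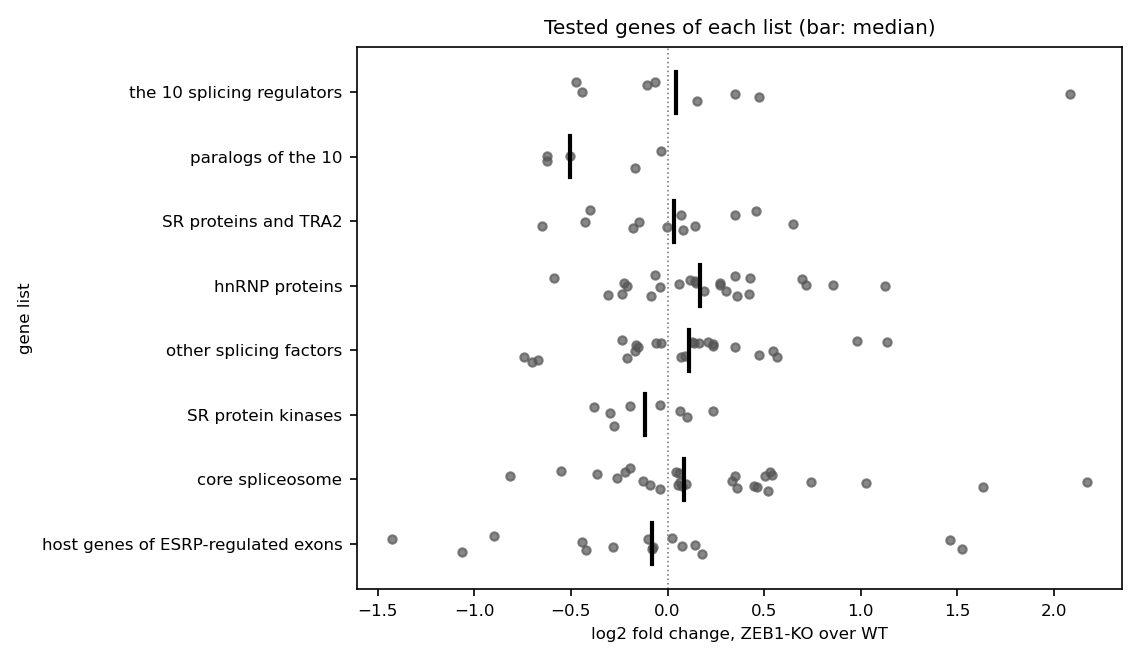
Log2 fold change, ZEB1-KO over WT (horizontal axis), of each tested gene in the 10 splicing regulators and 7 further lists (vertical axis), with a bar at each median. List medians lie between -0.51 (paralogs, 5 genes) and 0.17 (hnRNP proteins, 24 genes), and RBM47 at 2.08 and SNRPA at 2.17 lie farthest to the right.

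Among 8704 genes of at least 5 CPM on average, those whose log2 CPM followed RBM47 most closely over the 6 libraries were DCUN1D5, HNRNPC and TUBA1C, with Pearson's r of 0.993, 0.989 and 0.988. The genes most like ESRP1 were PI4KB, SMAD9 and DESI1, with r of 0.998, 0.995 and 0.994, each highest in ZEB1-KO replicate 2. ESRP1 had 12, 208 and 3 counts in ZEB1-KO libraries and 3, 5 and 0 in WT libraries. Its r therefore rests mostly on ZEB1-KO replicate 2. All these values share 6 libraries and their scaling, and they are given as a description. ESRP2 had too few counts, so no like gene is given for it, and those of QKI are not reported here.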

How the data were processed

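Raw counts per gene symbol were deposited by the authors for 6 libraries, with TPM values scaled to the same total for 11013 of these genes. The authors also deposited an edgeR table of log2 fold changes, log2 CPM, a likelihood ratio score, p-values and adjusted p-values for those genes, per the file headers. The tools named by the submitters' processing notes are HTSeq 0.6.1, TopHat2 2.1.0 and edgeR 3.2.2, beside hg19 and GRCh37. The sources used here do not give their settings or whether counting used strand.

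Counts were fitted here with edgeR 4.0.16 in R 4.3.3: filterByExpr (minimum count 10, total 15; 13659 genes kept), TMM factors, group alone, glmQLFit and glmQLFTest, two-sided, Benjamini-Hochberg over all genes tested, threshold 0.05. SEs came from the F statistic and 95% intervals from 4 residual plus 4.35 prior degrees of freedom. DESeq2 1.42.0 and limma 3.58.1 served as alternatives. TPM was tested as log2(TPM + 1) or log2(TPM + 0.1), which understates changes of low genes. The quasi-likelihood fit was run on counts simulated with dispersions from these libraries, where only median fold changes were checked against the set values. Library totals were 18909305 to 42876693. Replicates are separate clones. Other settings were scaling by RLE, upper quartile or library size, no filter, 1 CPM in 3 libraries, limma-voom, a replicate block and each library left out. The members and lists were chosen with earlier results of these data known. All members, ZEB1 and all paralogs are named. Beyond the exceptions stated beside them, from each other list genes past 0.05 and up to 3 with the largest absolute log2 fold change and no overlap are named. Some genes this rule names are not reported here. The DESeq2 fits without each library and the neighbouring genes were chosen after seeing the data. The marker lists were ductal and epithelial, mesenchymal, blood, endothelial, fibroblast, neuronal, and acinar and islet. Promoter sequences are RefSeq's.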

Additional observations from a re-analysis of the deposited data

How the results depend on the processing

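The count of calls over all genes was 24 and became 134 without a filter, 935 with DESeq2 and 617 with the likelihood ratio test. It was 80 with limma on log2(TPM + 1) and 80 on log2(TPM + 0.1). In the quasi-likelihood test it was 5 to 25 when each library was left out. The count of members called was 0 and became 1 without a filter, 2 with DESeq2, 1 with the likelihood ratio test, 1 on log2(TPM + 1) and 1 on log2(TPM + 0.1). In the quasi-likelihood test it was 0 when each of the 6 libraries was left out in turn. DESeq2 called RBM47 without each library in turn (adjusted p of 1.69e-08 to 0.00197). It called ESRP1 only without ZEB1-KO replicate 3 or WT replicate 2. The count of other list genes called was 0 and became 9 with DESeq2 and 5 with the likelihood ratio test. The causes were not tested. The median log2 fold change of all genes was 0.14 with library size alone, 0.20 on log2(TPM + 1) and 0.26 on log2(TPM + 0.1), against -0.01. In these 3 settings CELF1 changed sign to 0.045, 0.15 and 0.16, QKI to 0.10, 0.19 and 0.22, and PTBP2 to 0.12, 0.23 and 0.26. Without each library in turn QKI ran from -0.22 to 0.13, PTBP2 from -0.24 to 0.14 and MBNL3 from -0.33 to 0.082. The other tested members, paralogs and list genes that the naming rule picked kept their sign in the alternatives that gave a value. CD44, FGFR2 and SF3B4 were not recomputed.

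The labels give both groups the same replicate numbers. Deviations of same-numbered libraries correlated by 0.02, 0.01 and 0.22 over 13659 genes, and not every library correlated best with its own number, so the numbers were not taken as pairs. With the replicate block 20 genes were called, with 0 members and 0 list genes, and RBM47 had a log2 fold change of 2.06 (adjusted p = 0.0647 by edgeR). Depth limits ESRP2, with at most 5 counts, and the 11 untested paralogs, with at most 18.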
